A study of Mus musculus with 10 samples.

Results

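The genes described here are 43 mouse genes that take up fatty acids, activate them, carry them into mitochondria or peroxisomes, oxidize them there, or regulate that program. They were picked by name for their role, with earlier results of these data known. All 43 were found among the 55359 genes of the table. Of these, 42 had a mean of at least 1 normalized count over the tumors and were tested. Slc27a2, a fatty acid carrier of liver and kidney, was the exception, with at most 4.11 normalized counts in any tumor.

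RNA was sequenced from 10 orthotopic tumors grown from KPC K8484 cells, a mouse pancreatic cancer line that here carried luciferase, injected into the pancreas of C57BL/6 mice at 10 weeks of age. The CTRL group held 5 tumors of normoglycemic mice on regular water. The D30 group held 5 tumors of hyperglycemic mice that drank water with 30% dextrose. The water was given for 14 days. The mice of both groups were immunocompetent and the labels name no drug, and all tumors came from 1 cell line, so that they do not vary in tumor genotype as patients do. The tumors are named by their columns, N1, N2, N4, N5 and N6 for CTRL and T1, T2, T4, T5 and T7 for D30. The labels number their replicates otherwise, and no tumor was tied to a single mouse.

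Fatty acids enter cells through carriers such as CD36 and the FATP family, are joined to coenzyme A by acyl-CoA synthetases, and cross into mitochondria as carnitine esters made by CPT1. Inside, beta-oxidation shortens them in repeated cycles and passes electrons to the respiratory chain through the electron transfer flavoprotein, while peroxisomes shorten very long and branched chains. PPAR receptors and the PGC-1 coactivators, encoded by Ppargc1a and Ppargc1b, switch on many of these genes, most strongly in liver, muscle and brown fat.

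The promoters of 3 places in the pathway are shown for members described below. They are the 250 bases before the annotated start in RefSeq on GRCm38.p6, 5′ to 3′ on the strand of the gene, and capitals mark the E box CACGTG where it occurs. The first is Ppargc1a, which passed with limma. The second is the window of Slc27a1 that holds the E box. The third is the window of Hadhb, which shares 228 bases with that of Hadha on the other strand.
Ppargc1a, chr5:51567726-51567975, minus strand: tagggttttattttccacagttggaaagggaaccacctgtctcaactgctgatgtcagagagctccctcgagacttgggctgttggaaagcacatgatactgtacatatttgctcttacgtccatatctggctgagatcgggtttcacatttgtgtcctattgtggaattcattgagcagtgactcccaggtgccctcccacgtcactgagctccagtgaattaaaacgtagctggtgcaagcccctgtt
Slc27a1, chr8:71570344-71570593, plus strand: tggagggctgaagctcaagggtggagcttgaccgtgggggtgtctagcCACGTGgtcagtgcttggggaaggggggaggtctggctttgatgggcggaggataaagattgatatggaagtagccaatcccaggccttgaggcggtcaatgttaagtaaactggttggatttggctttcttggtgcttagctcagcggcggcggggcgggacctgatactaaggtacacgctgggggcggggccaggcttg
Hadhb, chr5:30155003-30155252, plus strand: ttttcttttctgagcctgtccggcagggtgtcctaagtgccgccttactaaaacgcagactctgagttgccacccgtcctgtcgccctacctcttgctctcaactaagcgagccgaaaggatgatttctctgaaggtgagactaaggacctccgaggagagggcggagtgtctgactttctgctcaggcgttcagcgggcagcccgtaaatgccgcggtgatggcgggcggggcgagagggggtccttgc

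RefSeq windows were at hand for 35 of the 43 members. None was at hand for Hsd17b4, Ppargc1b, Fabp5, Cpt1b, Crat, Acaa2, Decr1 and Acat1, so the counts below do not cover them. The letters AGGTCA, which many nuclear receptors recognize, stood on either strand in 9 of the 35 (Cd36, Slc27a2, Cpt1a, Cpt1c, Acadvl, Acadm, Echs1, Scp2 and Pparg), or 25.7%, and in 15.8% of the 27025 genes with a window. The E box CACGTG occurred in 1 of the 35 (Slc27a1), against 6.86% of genes. The PPAR element, searched as AGGTCA repeated after 1 base, was in none of the 35 and in 0.0407% of genes. The ERR element TCAAGGTCA, which contains AGGTCA, and the CRE TGACGTCA were also in none, against 0.422% and 1.77% of genes.

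Recovered reads per tumor ranged from 29192261 to 42122304. Tumor T4 stood apart. Its genes with transcripts under 2 kb lay a median 0.60 (log2) above the other D30 tumors and those over 6 kb lay 0.68 below, and N1 shifted the same way by 0.29 and -0.29 within CTRL. The other 8 tumors stayed between -0.19 and 0.14 for short and between -0.16 and 0.29 for long transcripts, over 11578 coding genes with a mean of at least 100. T5 shifted little by length (-0.04 for short and -0.03 for long transcripts) but deviated about as widely as N1. The median absolute deviation was 0.40 in T5, 0.40 in N1 and 0.84 in T4. T5 was the highest or lowest D30 tumor for 60.3% of all tested genes and 54.8% of the members. It also had the fewest genes with a read, 20482. Among the 42 members, T4 was the highest or lowest D30 tumor for 34 (81.0%), against 67.1% of all tested genes. Results that rest on T4 are given with and without it, the plot of fold changes shows both for every member, and the part of this shift in any member's value was not tested.

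**Figure D1:**
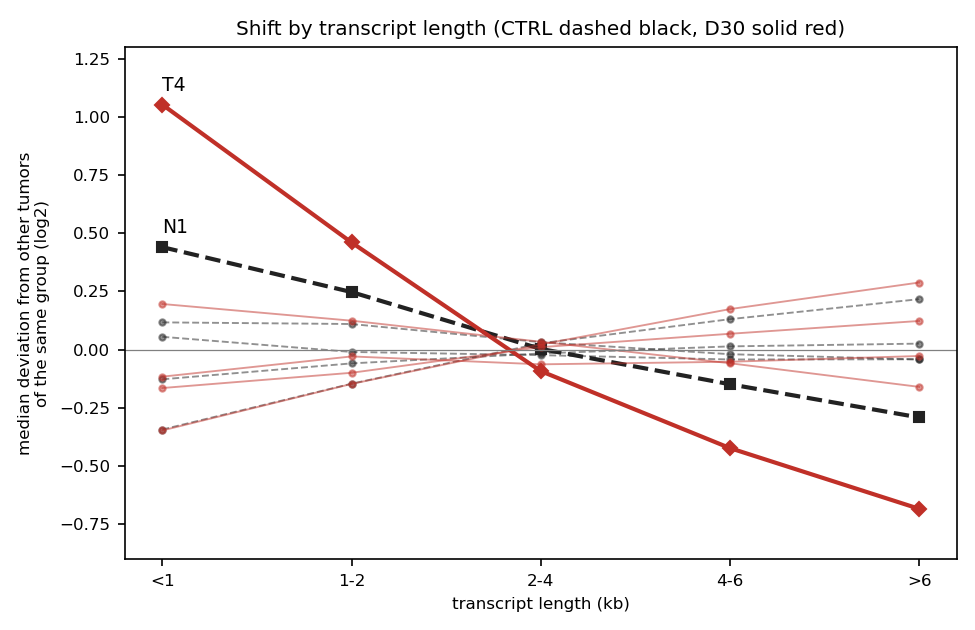
Median deviation of each tumor from the other tumors of its group (log2, y axis) for coding genes binned by transcript length in kilobases (x axis); CTRL tumors are dashed black and D30 tumors solid red. T4 runs from 1.05 for transcripts under 1 kb to -0.68 for those over 6 kb, and N1 from 0.44 to -0.29.

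Markers of other cells also differed between tumors. N4 had the highest sum of the 12 adipocyte markers, 8258 normalized counts against 3103 to 3831.5 in the other CTRL tumors and 3095 to 3885 in D30, with Adipoq at 271 there and at most 7.46 elsewhere. Acinar markers (10 genes) summed to 345 to 67555 in CTRL, highest in N6 and N2, and to 181 to 6786 in D30, highest in T4. Endothelial markers (8 genes) summed to 12098 to 18933 in CTRL and 6915 to 10025 in D30, and macrophage markers (8 genes) to 22319 to 33209 and 14707 to 30037. The largest single part of the endothelial sum was Cdh5, at 7205 to 14529 in CTRL and 2480 to 6142 in D30. Cdh5 was the only endothelial marker that passed (log2 fold change -1.45, limma adjusted p = 0.0117). The median over the 8 endothelial markers was -0.68, and Cldn5 was higher in D30 (0.33). Erythroid markers (4 genes) reached 171591 in T5 and at most 11210.4 elsewhere. The tumor epithelium markers (8 genes) summed to 224679 to 355284 in CTRL and 377561 to 500428 in D30, led by Krt8, Krt18 and Krt19. Epcam was at 15.9 to 191 in CTRL and 0 to 62.5 in D30, with a log2 fold change of -3.17 (limma adjusted p = 0.099) and of -3.96 without T4 (adjusted p = 0.00902). In the other lists, the T cell sum was 270.0 to 582 in CTRL and 169.7 to 273 in D30, the islet sum 17.7 to 1496 and 0 to 83.6, and the fibroblast sum 78585 to 138359 and 29989.7 to 104760.0. The enterocyte sum was 23465 to 32577 and 26689 to 43546, the hepatocyte sum 1508 to 3578 and 527 to 1256 (mostly Ttr, with Cyp2e1 at 409 in N4 and at most 1.03 elsewhere), and the muscle sum 1052 to 2072 and 1893 to 7641 (nearly all Tnnt2, with Myh4 and Myh6 at 0 throughout). Besides Cdh5, 4 of the 7 islet markers passed with limma over all tumors (Ins1, Gcg, Ppy and Iapp). So did 2 of the 8 hepatocyte markers (Alb and Ttr) and 1 of the 8 macrophage markers (Csf1r). All of these were lower in D30, where 2.76% of all tested genes passed, and no marker of the remaining lists passed. The part of these cells in the values below was not tested. In bulk tumors, fewer cells of a type and less RNA per cell cannot be told apart.

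The comparison asked how the genes of fatty acid use differ between tumors of normoglycemic and hyperglycemic mice. The members that passed with limma were a coactivator and a peroxisomal enzyme, both lower in D30. With limma and all tumors, none of the genes of uptake, activation, the carnitine shuttle or mitochondrial oxidation passed. Of the 42 members, 2 passed an adjusted p under 0.05 with limma (Ppargc1a and Hsd17b4), or 4.76%, where 2.76% of all 24560 tested genes passed. An unadjusted p under 0.05 was reached by 8 members, or 19.0%, against 17.3% of all genes. Groups did not overlap for 3 members (7.14%), against 6.19% of all genes. By direction alone, 27 members were higher in D30 and 15 lower, with a median log2 fold change of 0.19, where 45.3% of all genes were higher and their median was -0.06. Without T4 the members' median was 0.04 with 22 of 42 higher, and with scaling to library size it was -0.04 with 18 of 42 higher and the median over all genes moved to -0.27. That scaling also moved the calls over all genes from 344 higher and 334 lower to 240 higher and 624 lower.

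Other tools and tumor sets called other members. edgeR called 2 members (Hsd17b4 and Ppargc1b), with 4.13% of its genes called, and DESeq2 called 4 (those 2, Ppargc1a and Etfb), with 8.52% called. Without T4, limma called 5 members, Ppargc1b and Slc27a1 higher and Crot, Hsd17b4 and Ppargc1a lower in D30, where 6.43% of all genes were called. Leaving out N1, N2, N4, N5, N6, T1, T2 or T7 left 0 members called, and leaving out T5 left Ppargc1a alone.

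**Figure D2:**
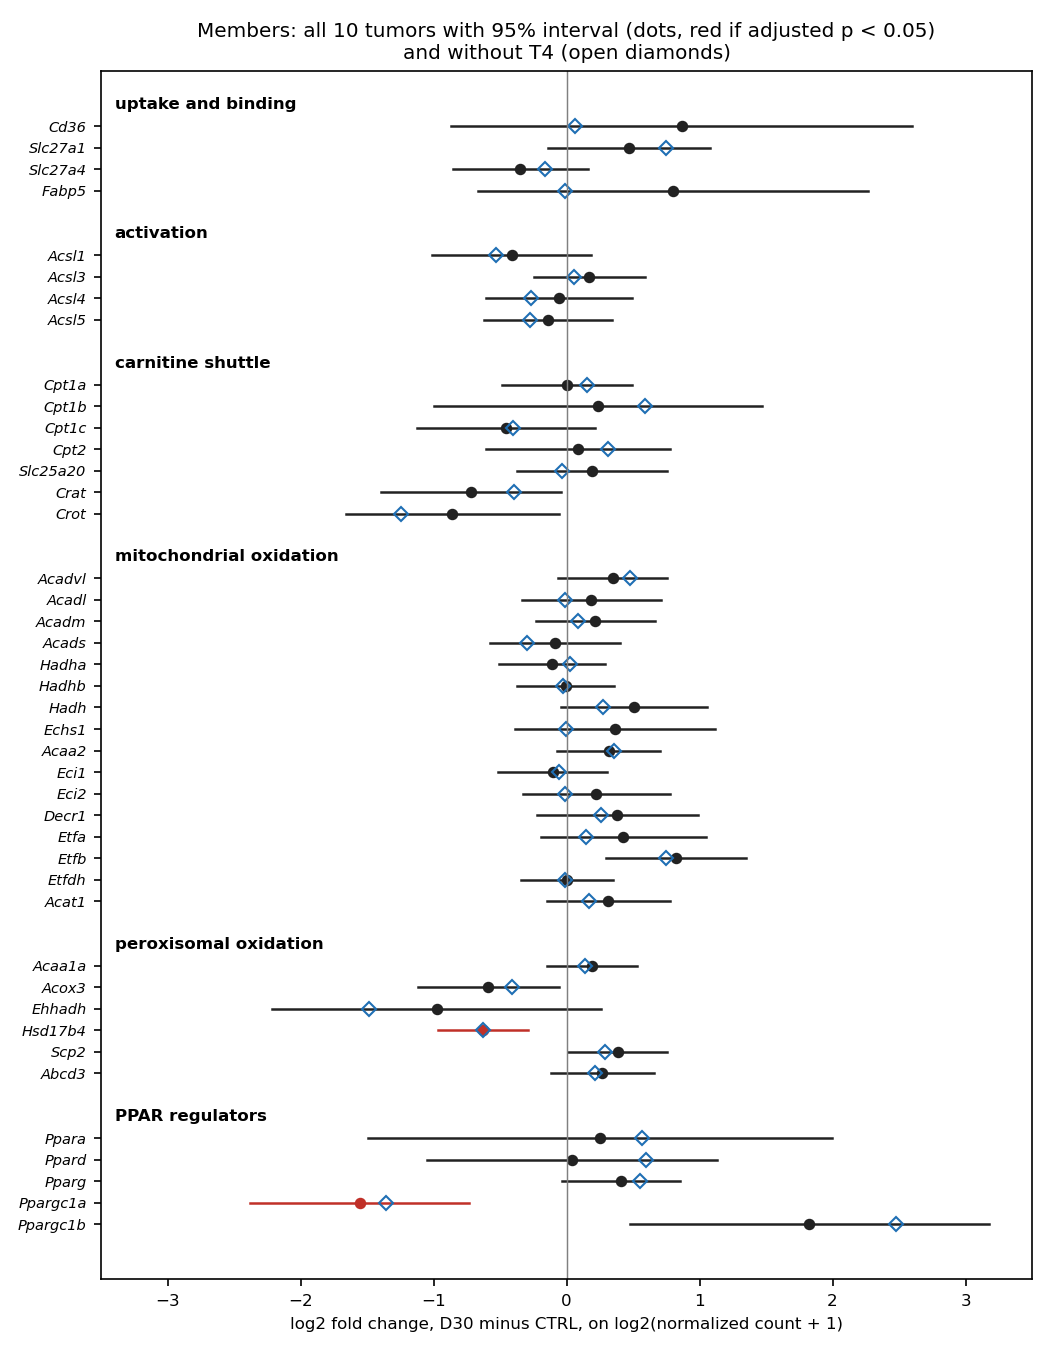
Log2 fold change of D30 over CTRL (x axis) for the 42 tested members by role; dots with lines are the limma estimate over all 10 tumors with its 95% interval, red where the adjusted p is under 0.05, and open diamonds the estimate without T4. Ppargc1a and Hsd17b4 are red and lie below 0, and the diamonds of Crot, Ppargc1b and Slc27a1 lie farther from 0 than their dots.

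With all tumors, the coactivators gave the largest fold changes of the members in each direction, while without T4 the most negative was that of Ehhadh, at -1.48 against -1.36 for Ppargc1a. Ppargc1a (ENSMUSG00000029167.14, chromosome 5), which encodes PGC-1α, the coactivator that drives mitochondrial biogenesis and oxidative genes, stood at 213 normalized counts in N1, 335 in N2, 159.9 in N4, 366 in N5 and 196 in N6. In D30 it stood at 94.6 in T1, 116 in T2, 46.3 in T4, 145 in T5 and 47.9 in T7. Every D30 tumor lay below every CTRL tumor. The CTRL mean was 254 ± 90.7 and the D30 mean 90.0 ± 43.1 (SD, n = 5 tumors each). This log2 fold change of -1.56 ± 0.38 (SE) on log2(normalized count + 1) passed with limma (adjusted p = 0.0478) and DESeq2 (adjusted p = 0.00279) but not edgeR (adjusted p = 0.0513). A two-sided exact permutation test of the single gene gave p = 0.00794, the smallest that 5 against 5 tumors can give. Leaving out 1 tumor at a time gave limma adjusted p values of 0.0225 to 0.151, and without T4 the fold change was -1.36 (adjusted p = 0.0371). Its transcript is 6.46 kb long. Within D30, transcripts over 6 kb deviated by a median -0.68 in T4, -0.16 in T7, -0.03 in T5, 0.12 in T2 and 0.29 in T1. Within CTRL, N1 deviated by -0.29 and N5 by 0.22. The part of these shifts in the result was not tested. The acinar marker sum was 361 in N5 and 30803 in N2, the tumors with the highest and second highest Ppargc1a, and 67555 in N6, and its part in the result was not tested.

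Ppargc1b (ENSMUSG00000033871.15, chromosome 18), which encodes PGC-1β, the related coactivator that also works with SREBP and ERR factors, went the other way in 4 of the 5 D30 tumors. It stood at 14.7, 13.0, 15.5, 12.4 and 18.8 normalized counts in N1, N2, N4, N5 and N6. In D30 it was 97.7 in T1, 142 in T2, 63.0 in T5 and 65.0 in T7, while T4 had 8.10, the lowest of all 10 tumors. Apart from T4, every D30 tumor lay above every CTRL tumor. Over all tumors its log2 fold change was 1.83 ± 0.63 (SE), which did not pass with limma (adjusted p = 0.152) but did with edgeR (adjusted p = 0.0406) and DESeq2 (adjusted p = 0.000751). Without T4 it was 2.48 ± 0.37 (SE) with limma (adjusted p = 0.00214), from 14.9 ± 2.53 (SD, n = 5) to 91.9 ± 37.0 (SD, n = 4).

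Per kilobase of transcript, the ratio of Ppargc1a to Ppargc1b, picked after its values were seen and not tested, ran from 5.82 to 16.7 over the CTRL tumors and from 0.417 to 3.23 over the D30 tumors. T4 had the highest D30 ratio, and the 4 other D30 tumors lay at 0.548 (T1), 0.461 (T2), 1.31 (T5) and 0.417 (T7). In CTRL the level of Ppargc1a was 39.3 ± 14.03 and that of Ppargc1b 4.07 ± 0.693 normalized counts per kilobase (SD, n = 5). In D30 they were 13.9 ± 6.67 and 20.6 ± 13.5 (SD, n = 5), so that within D30 the order of the coactivators was not separated from the spread.

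**Figure D3:**
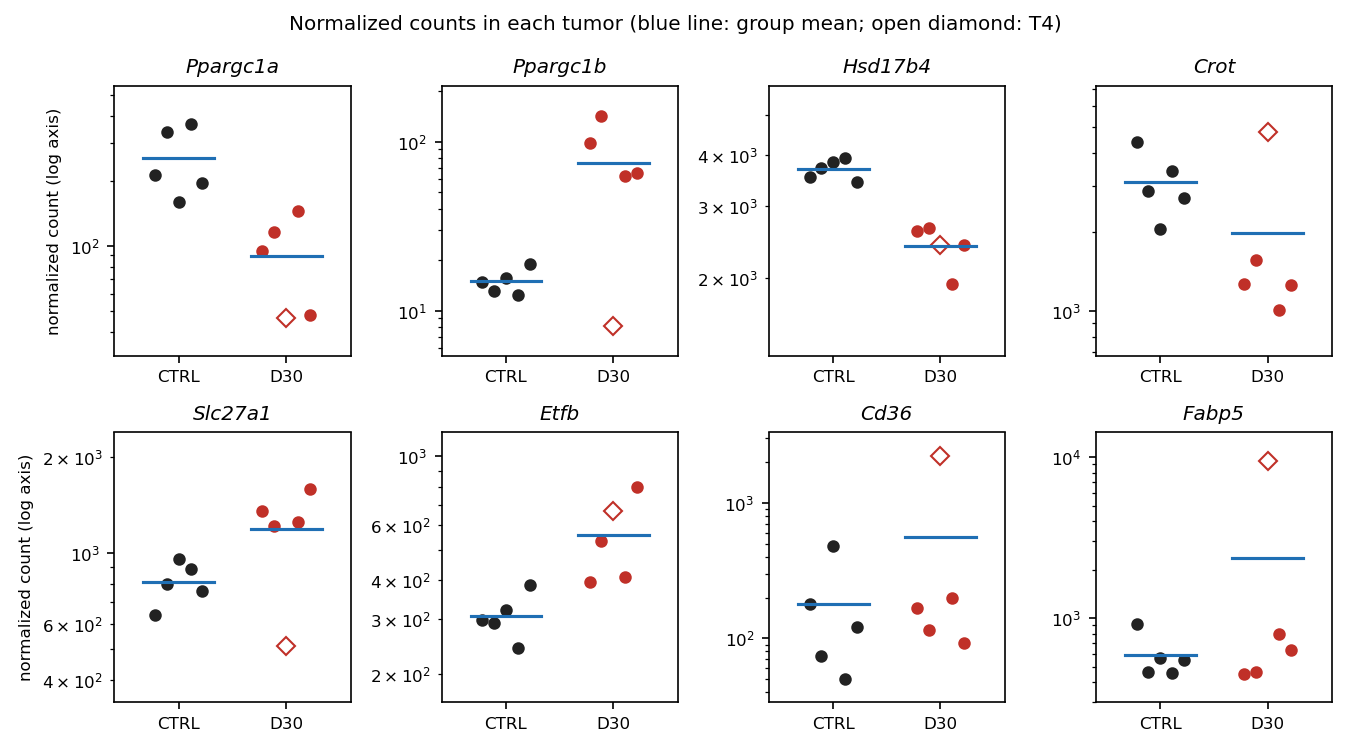
Normalized counts on log axes for 8 members in the 5 CTRL (black) and 5 D30 (red) tumors; each point is a tumor, the blue line is the group mean and the open diamond is T4. Ppargc1a and Hsd17b4 are lower in every D30 tumor, whereas T4 lies on the far side of the CTRL tumors for Ppargc1b, Crot and Slc27a1 and far above all tumors for Cd36 (2204) and Fabp5 (9473).

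Among the receptors, Pparg, the regulator of adipocyte differentiation and lipid storage, had 2214, 2164, 3092, 2662 and 2481 normalized counts in N1, N2, N4, N5 and N6. Its D30 values were 3637 in T1, 3915 in T2, 2209 in T4, 4246 in T5 and 3014 in T7. The groups overlapped through N4, T4 and T7. Pparg gave a log2 fold change of 0.41 with a 95% interval of -0.04 to 0.85 (limma adjusted p = 0.331), and without T4 it was 0.55 (adjusted p = 0.0534).

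Ppard, the broadly expressed receptor, ran from 1687 in N1 through 3468 in N5, 3516 in N2 and 3604 in N6 to 4819 in N4, and in D30 from 710.2 in T4 through 4239.6 in T7, 4623 in T1 and 4659.8 in T2 to 6324 in T5. The tumors with the lowest values were T4 and N1. Its log2 fold change was 0.04 (95% interval -1.05 to 1.13, limma adjusted p = 0.979) and without T4 0.60 (adjusted p = 0.18). Ppara, the receptor that runs fatty acid oxidation in liver, was nearly absent, at 0 to 2.57 normalized counts in CTRL, 17.2 in T5, 3.44 in T2 and 0 in T1, T4 and T7. Of the summed level per kilobase of the 3 receptors, Ppara made up at most 0.116% in any tumor and Pparg 53.3 to 70.9% in CTRL and 55.4 to 85.2% in D30, the upper end being T4.

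In peroxisomal oxidation, Hsd17b4 (ENSMUSG00000024507.7, chromosome 18), the D-bifunctional protein that hydrates and dehydrogenates very long and branched chains, fell in D30. It had 3539, 3712, 3836, 3934 and 3438 normalized counts in N1, N2, N4, N5 and N6, and 2602, 2645, 2403, 1936 and 2406 in T1, T2, T4, T5 and T7. The highest D30 tumor lay below the lowest CTRL tumor. The CTRL mean was 3692 ± 205 and the D30 mean 2399 ± 281 (SD, n = 5 tumors each). At -0.63 ± 0.16 (SE) on the log2 scale, Hsd17b4 passed with limma (adjusted p = 0.0497), edgeR (adjusted p = 0.0363) and DESeq2 (adjusted p = 0.0021). The fold change was the same without T4 (-0.63, limma adjusted p = 0.0176), while leaving out any other tumor raised the adjusted p above 0.05, up to 0.148.

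Acox3, an oxidase of branched-chain acyl-CoA, had 996, 1723, 1285, 1903 and 1529 normalized counts in N1, N2, N4, N5 and N6 and 1123, 1244, 585, 934 and 1085 in T1, T2, T4, T5 and T7. Only N1 fell within the D30 range. Its log2 fold change was -0.59 (limma adjusted p = 0.238). Scp2, the thiolase and sterol carrier, had 2948, 2354, 2742, 2352 and 2673 in CTRL and 3121, 3451, 4419, 2756 and 3457 in D30, in the same order of tumors. The groups overlapped through T5 alone, which lay below N1, and the log2 fold change was 0.38 (limma adjusted p = 0.271).

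Ehhadh, the L-bifunctional enzyme and a textbook PPARα target, was low, with 36.8, 10.8, 32.0, 20.4 and 21.4 normalized counts in N1, N2, N4, N5 and N6. T1, T2, T5 and T7 had 7.20, 8.02, 6.87 and 7.46, all below the lowest CTRL tumor, and T4 had 47.4. The log2 fold change was -0.98 (limma adjusted p = 0.412) over all tumors and -1.48 (adjusted p = 0.0725) without T4. Acaa1a, the peroxisomal thiolase, and Abcd3, a transporter of the peroxisomal membrane, gave log2 fold changes of 0.19 and 0.27, with limma adjusted p values of 0.576 and 0.478.

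In the carnitine shuttle, none of the 7 genes passed with all tumors, and Crot and Crat had an unadjusted p under 0.05. Crot (ENSMUSG00000003623.5, chromosome 5), which makes carnitine esters of the chains that peroxisomes have shortened, had 4408, 2873, 2044, 3417 and 2684 normalized counts in N1, N2, N4, N5 and N6. T1, T2, T5 and T7 had 1263, 1570.4, 1013 and 1254, below every CTRL tumor, and T4 had 4784, above every CTRL tumor. The log2 fold change was -0.86 ± 0.37 (SE, limma adjusted p = 0.255), and without T4 it was -1.24 ± 0.21 (SE, adjusted p = 0.00454). Crat, the acetylcarnitine transferase, had 1277, 2116, 2004, 2175 and 1836 in CTRL and 1307, 1574, 458, 1461 and 1290.0 in D30, in the same order of tumors. N1 lay among the D30 tumors, and the log2 fold change was -0.72 (limma adjusted p = 0.257). It was -0.40 without T4 (adjusted p = 0.194).

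Cpt1a, the rate-limiting carnitine palmitoyltransferase of most tissues, did not pass, with 6888 ± 1498 normalized counts in CTRL and 6969 ± 1749 in D30 (SD, n = 5 each), a log2 fold change of 0.00 and a 95% interval of -0.48 to 0.49. It made up 95.5 to 97.5% of the level per kilobase of the 3 CPT1 genes in CTRL and 96.1 to 98.5% in D30. Cpt1c, a form found mainly in neurons, had 139, 164, 119.7, 100.04 and 160.0 normalized counts in N1, N2, N4, N5 and N6 and 74.0, 67.6, 83.3, 152 and 138 in T1, T2, T4, T5 and T7. T1, T2 and T4 lay below every CTRL tumor, but T5 and T7 did not, and the log2 fold change was -0.46 (limma adjusted p = 0.485). Cpt1b, the muscle form, stayed at 6.31 to 48.7 over all tumors. Cpt2, the inner membrane transferase, and Slc25a20, the carnitine carrier of the inner membrane, gave log2 fold changes of 0.09 and 0.19, and Slc25a20 was highest in N1 (1331) and T4 (1895).

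Of the 16 genes of mitochondrial beta-oxidation, 12 were higher in D30 and 4 lower, and none passed with limma, at log2 fold changes from -0.11 to 0.83. Without T4, 9 of the 16 were higher and their median moved from 0.27 to 0.06. Etfb (ENSMUSG00000004610.5, chromosome 7), the beta subunit of the electron transfer flavoprotein, had 297, 292, 319.8, 243 and 386 normalized counts in N1, N2, N4, N5 and N6. In T1, T2, T4, T5 and T7 it had 396, 533, 667, 409 and 796. Every D30 tumor lay above every CTRL tumor, though T1 exceeded N6 by few counts. Its log2 fold change was 0.83 ± 0.24 (SE), past the threshold with DESeq2 (adjusted p = 0.0157) but not with limma (adjusted p = 0.0964) or edgeR (adjusted p = 0.0646), and 0.75 without T4 (limma adjusted p = 0.077).

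Its partners gave other values. Etfa, the alpha subunit, had a log2 fold change of 0.43 with all tumors and 0.15 without T4, where it had 7994 normalized counts against 2553 to 3544 in the other D30 tumors. Etfdh, which hands the electrons to ubiquinone, had 1910.2 ± 220.2 in CTRL and 1911 ± 191 in D30 (SD, n = 5 each), a log2 fold change of 0.00 with a 95% interval of -0.35 to 0.35. The ratio of Etfa to Etfb per kilobase ran from 4.38 to 8.49 in CTRL and from 2.30 to 7.68 in D30, which overlap.

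Hadh, the short-chain hydroxyacyl-CoA dehydrogenase, had 5359, 3184, 3497, 3600.4 and 3476 normalized counts in N1, N2, N4, N5 and N6 and 4097, 4848, 10186, 4299.5 and 5018 in T1, T2, T4, T5 and T7. All D30 tumors lay above the CTRL tumors other than N1. This gave a log2 fold change of 0.51 (limma adjusted p = 0.328), and 0.28 without T4. Acadvl, which starts the oxidation of very long chains, had 1032, 1069, 1262, 1227 and 1203 in CTRL and 1734, 1666, 1014, 1387 and 1684 in D30, in the same order of tumors. Here T4 was the lowest of all tumors and the other D30 tumors lay above CTRL, with a log2 fold change of 0.35 (limma adjusted p = 0.376) that was 0.48 without T4 (adjusted p = 0.0625). Acaa2, the mitochondrial thiolase, had 3785, 2580.0, 3329, 3098 and 3042 in CTRL and 3491, 4269, 3493, 3403 and 5158 in D30. N1 lay within the D30 range, and the log2 fold change was 0.32 (limma adjusted p = 0.4).

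Hadha and Hadhb, the subunits of the trifunctional protein that carries out the later steps on long chains, start 272 bases apart on opposite strands in RefSeq, and the third promoter printed above lies between them. Neither passed, with log2 fold changes of -0.11 (95% interval -0.51 to 0.29) and -0.01 (95% interval -0.37 to 0.35). Their ratio per kilobase lay between 1.10 and 1.32 in CTRL and between 1.14 and 1.42 in T1, T2, T5 and T7, and T4 had 0.726. Hadha has the longer transcript, 4.02 kb against 2.05 kb.

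The acyl-CoA dehydrogenases Acadl, Acadm and Acads, for long, medium and short chains, gave log2 fold changes of 0.19, 0.22 and -0.09. Echs1, the enoyl-CoA hydratase, gave 0.36 with all tumors and 0.00 without T4, where it had 14983 normalized counts against 3685 to 4769 in the other D30 tumors. Eci1, Eci2 and Decr1, which handle unsaturated chains, gave -0.10, 0.22 and 0.38, and Acat1, the acetoacetyl-CoA thiolase, 0.31. All of these had a limma adjusted p of at least 0.522 except Acat1 (0.488), and their intervals included 0.

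In fatty acid uptake, none of the 4 tested genes passed with all tumors. Slc27a1 (ENSMUSG00000031808.8, chromosome 8), the insulin-responsive carrier FATP1, had 639, 797, 956, 889.7 and 759 normalized counts in N1, N2, N4, N5 and N6. T1, T2, T5 and T7 had 1354, 1215, 1253 and 1590.4, above every CTRL tumor, and T4 had 509, below every CTRL tumor. The log2 fold change was 0.47 ± 0.28 (SE, limma adjusted p = 0.426) and without T4 0.75 ± 0.16 (SE, adjusted p = 0.0175). Slc27a4, the carrier FATP4, had 1680.1, 2964, 2839.6, 2818 and 2689 in CTRL and 2109, 2090.5, 1209, 2500.0 and 2413 in D30. All D30 tumors lay below the CTRL tumors other than N1, and the log2 fold change was -0.35 (limma adjusted p = 0.486). Of the level per kilobase of the FATP genes listed, Slc27a1 made up 28.1 to 35.5% in CTRL and 37.9 to 48.9% in D30, shares that were set side by side after the values were seen and not tested.

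Fabp5, a fatty acid binding protein of epithelia and macrophages, had 924, 465, 569, 459 and 552 normalized counts in N1, N2, N4, N5 and N6 and 449, 465, 9473, 793 and 636 in T1, T2, T4, T5 and T7. T4 alone lay above the range of CTRL. Its fold change of 0.80 on the log2 scale (limma adjusted p = 0.592) became -0.01 without T4. Cd36, the scavenger receptor of fat, macrophages and endothelium, named here after its values were seen, had 179.9, 73.7, 477, 50.5 and 121 in CTRL and 168, 116, 2204, 198 and 92.7 in D30. N4, with the adipocyte transcripts, was the highest CTRL tumor and T4 the highest of all. The log2 fold change was 0.86 (limma adjusted p = 0.631) and 0.07 without T4.

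None of the 4 acyl-CoA synthetases passed. Acsl5, the form typical of intestine and the member with the highest level per kilobase in CTRL (3349 ± 443, SD, n = 5), had 17404, 12472, 14034, 13349.9 and 13799 normalized counts in N1, N2, N4, N5 and N6 and 13364, 11816, 18670.0, 8116 and 14440.2 in T1, T2, T4, T5 and T7. T5 was the lowest and T4 the highest, and the log2 fold change was -0.14 (limma adjusted p = 0.796). Acsl5 made up 54.7 to 59.1% of the level per kilobase of the 4 genes in CTRL and 44.1 to 64.1% in D30.

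Acsl1, the form linked to oxidation and storage in fat, heart and liver, had 454, 545, 512, 602 and 458 in CTRL and 333, 359, 536, 617 and 212 in D30, with a log2 fold change of -0.41 (limma adjusted p = 0.483). Acsl3, the form of the endoplasmic reticulum and lipid droplets, had 6919, 5515, 6430.2, 6793 and 6577 in CTRL and 8806, 6531, 10013, 6241 and 5511 in D30, with a log2 fold change of 0.17 (limma adjusted p = 0.704). For both genes the groups overlapped. Acsl4, which prefers arachidonic acid, gave -0.06.

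**Figure D4:**
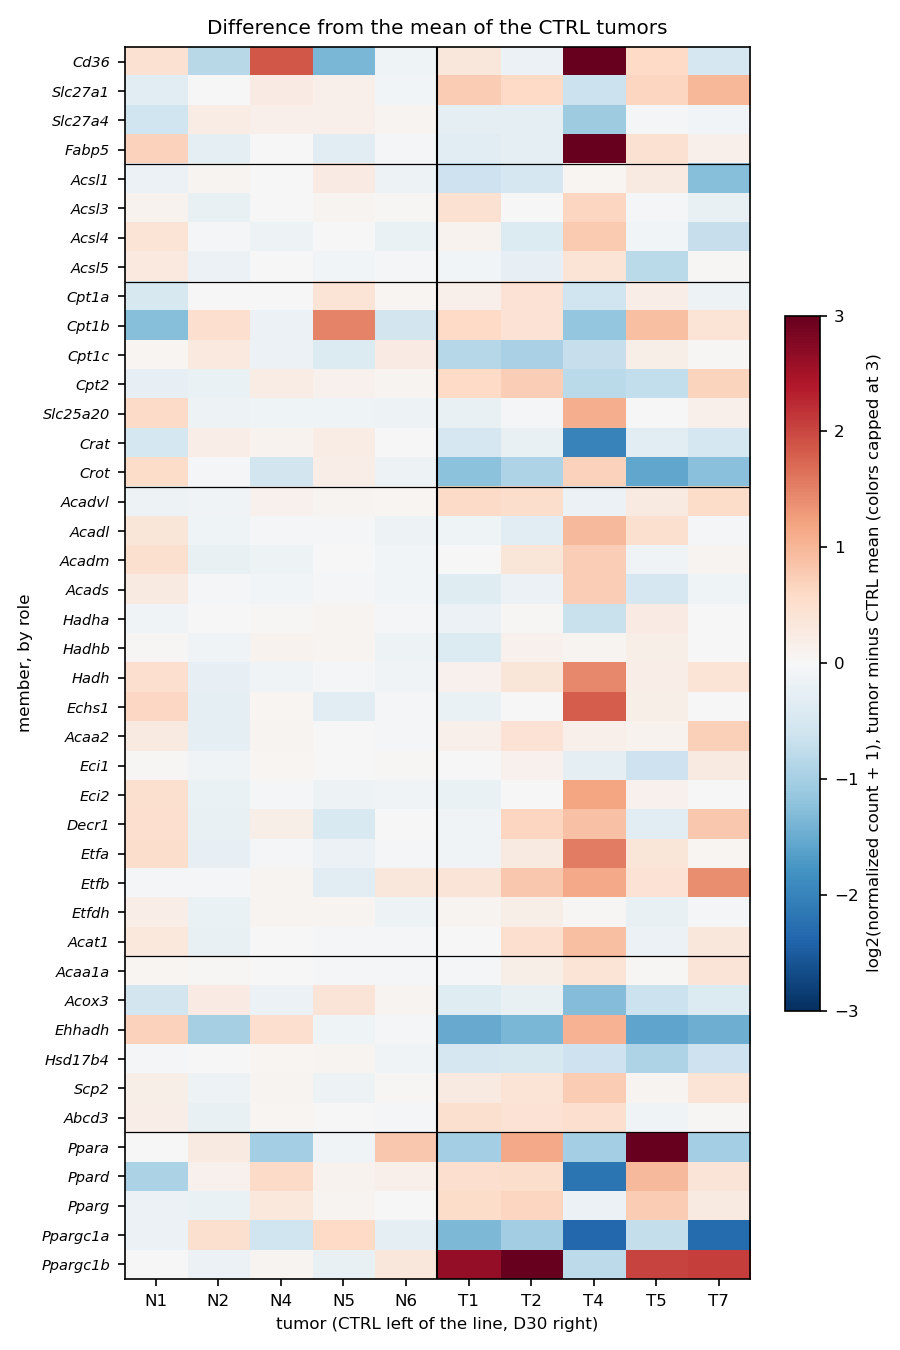
Each of the 42 tested members (rows, by role) in each tumor (columns, CTRL left of the line and D30 right) as the difference of log2(normalized count + 1) from the mean of the CTRL tumors, with colors capped at 3. T4 differs from the other D30 tumors for most rows, while Ppargc1a and Hsd17b4 are blue in all 5 D30 tumors.

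Other genes of the pathway were read from 5 further lists, where the share passed with limma over all tested genes was 2.76%. Among 21 tested genes of other uptake, binding and activation, 1 passed with limma (4.76%), upward. Acsm3, a medium-chain acyl-CoA synthetase, had 67.3, 31.8, 50.3, 50.5 and 56.5 normalized counts in N1, N2, N4, N5 and N6 and 340.3, 959, 477, 151 and 299 in T1, T2, T4, T5 and T7. The groups did not overlap, and the log2 fold change of 2.87 ± 0.43 (SE, limma adjusted p = 0.00431) stayed past the threshold without any 1 tumor. Fabp2, the intestinal binding protein, had the next smallest p (1.53, limma adjusted p = 0.107).

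Among 33 tested peroxisomal genes, 1 passed (3.03%), upward. Eci3, a peroxisomal isomerase, had 18.9, 5.06, 12.8, 8.85 and 8.56 in CTRL and 15.4, 117, 132, 57.2 and 74.6 in D30 (2.56 ± 0.57 SE, limma adjusted p = 0.0312), with T1 inside the CTRL range. Cat, catalase, had a log2 fold change of -0.53 (limma adjusted p = 0.17). Among 21 other mitochondrial oxidation genes none passed, and the smallest p values were those of Mmut, methylmalonyl-CoA mutase (-0.75, limma adjusted p = 0.0797), and Ivd, isovaleryl-CoA dehydrogenase (-0.69, adjusted p = 0.131). Of the 8 genes on the ketone body list, none passed with limma over all tumors. Without T4, 1 passed (lower in D30), against 6.43% of all genes. DESeq2 called 2, against 8.52% of all genes. An unadjusted p under 0.05 was reached by 3 (37.5%, against 17.3% of all genes). The groups did not overlap for 3 (37.5%, against 6.19% of all genes).

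Among 29 tested PPAR targets and partners, 3 passed (10.3%), all upward. Creb3l3, a membrane-bound factor that works with PPARα in liver, had 69.4, 83.1, 141, 143 and 142 in CTRL and 324, 431, 419, 351 and 336 in D30, without overlap (1.73 ± 0.27 SE, limma adjusted p = 0.00534). It stayed past the threshold without any 1 tumor. Esrra, the ERRα receptor that the PGC-1 coactivators bind, had 2151, 2181, 2099.6, 2192 and 2552 in CTRL and 3527, 4466, 7069, 2786 and 4289.7 in D30, without overlap (0.92 ± 0.23 SE, limma adjusted p = 0.0491). Ucp2, a carrier of the inner mitochondrial membrane, also passed (1.22 ± 0.28 SE, limma adjusted p = 0.0359), with T4 (8596) inside the CTRL range. Esrra and Ucp2 were past the threshold in 2 of the 10 fits that left out 1 tumor, and Eci3 in 4.

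The counting setting for strand was not given in the sources used here, so that reads of genes with overlapping exons may not be separable. In GENCODE M21 this touches Crat (Dolpp1), Crot, Acadvl (Dvl2), Hadha (Garem2), Echs1 (Paox), Etfb, Etfdh, Eci2, Acsl1, Acsl3 (Utp14b), Acsl5 (Zdhhc6), Cpt1b, Cpt1c, Acox3, Acaa1a (Myd88), Slc27a2 and, outside the members, Acsm3 (Eri2), Mmut, Eci3, Ucp2 and Esrra. For Crot, Etfb, Acsl3, Cpt1b and Esrra an overlapping gene lies on the same strand, where no strand setting would separate the reads. For the other genes named, all overlaps lie on the opposite strand. Ppargc1a, Ppargc1b, Hsd17b4, Slc27a1 and Pparg had no overlap on either strand.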

How the data were processed

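The authors prepared directional libraries, trimmed reads with Trim Galore and aligned them with STAR (2.7.0e). The methods name hg38 and the submitters' processing notes GRCm39, while the identifiers are mouse Ensembl genes. The authors deposited 1 normalized count signal per gene and tumor, the form that DESeq2 gives after division by a size factor. All values were whole multiples of 1 step per tumor (100% within 0.01 reads), and reads were recovered from it. The main test was limma (3.58.1, R 4.3.3), with a mean-variance trend on log2(normalized count + 1), for genes with a mean of at least 1, with Benjamini-Hochberg adjustment over all tested genes. A call is an adjusted p under 0.05. edgeR (4.0.16, quasi-likelihood) and DESeq2 (1.42.0) were run on recovered reads. The scripts were tested on simulated data. Names and transcript lengths (the longest APPRIS principal transcript) came from GENCODE M21, which matched 94.1% of identifiers. The members and lists were chosen with earlier results of these data known. Values in every tumor are given for members that pass in limma, edgeR or DESeq2, for members whose groups do not overlap, and for up to 3 further members per role with the smallest unadjusted p; from other lists, genes that pass with limma or else the 2 with the smallest p. Some genes that meet this rule are not reported here. Columns were put in groups by their letter, N for normoglycemic and T as the only other group. Sample titles say PDX, whereas the source field gives KPC K8484 cells. No batch is given in the sources used here. The p values set the difference between the groups against the spread between these tumors.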

Additional observations from a re-analysis of the deposited data

Results flagged for a closer look

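In 21 of the 84 sets of 5 values (42 members in 2 groups), the highest or lowest tumor stood apart by Dixon's criterion. The criterion passes about 1 in 20 sets of independent normal values, but these sets share the same 10 tumors. The share over all genes was not computed. T4 was the highest or lowest D30 tumor for 67.1% of all tested genes and T5 for 60.3%. N1 was the highest or lowest CTRL tumor for 65.0%. T4 accounted for 11 of the 21 sets, N1 for 9 and T5 for 1. T4 was far above the other D30 tumors for Cd36 (2204 normalized counts, next 198), Fabp5 (9473, next 793), Slc25a20 (1895, next 986), Crot (4784, next 1570.4), Acads (5353, next 2934), Hadh (10186, next 5018), Echs1 (14983, next 4769), Eci2 (3419, next 1654), Etfa (7994, next 3544) and Ehhadh (47.4, next 8.02), and far below them for Crat (458, next 1290.0). N1 was far above the other CTRL tumors for Fabp5 (924, next 569), Slc25a20 (1331, next 815), Acadl (6129, next 4606), Acadm (4443, next 3174), Acads (3858, next 3106), Hadh (5359, next 3600.4), Eci2 (2128, next 1483) and Etfa (3926, next 2679), and far below them for Slc27a4 (1680.1, next 2689). Ppara in T5 (17.2) was far above the next D30 tumor (3.44). Of the 42 members, 13 have a transcript under 2 kb. T4 was the highest D30 tumor for 9 of these 13 and N1 the highest CTRL tumor for 10, and over the 13 the median deviation from the group's other tumors was 1.07 in T4 and 0.46 in N1 (log2). For the 29 longer members it was -0.06 and 0.00.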

How the results depend on the processing

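No paired analysis was possible because the table's columns do not carry the replicate numbers of the labels. Nor is a pairing described, since the paper states that mice with tumors were randomized to their treatment. No source used here links a replicate number in CTRL to the same number in D30. Tried were other pseudocounts, filters, scalings, edgeR, DESeq2 and leaving out each tumor. Leaving out N4 with T4, or N1 with T4, was chosen after seeing the data. The count of members called was 2 in the main fit, 0 with no filter or upper-quartile scaling, 1 with TMM scaling, 4 with DESeq2, 6 without N4 and T4, 5 without N1 and T4, and 0 to 5 when 1 tumor was left out. The count over all genes was 678, 1858 with DESeq2, 1309 without N4 and T4, and 1584 without N1 and T4. It was 279 (without N2) to 1573 (without T4) when 1 tumor was left out. Over all genes, no filter gave 289 calls higher and 311 lower in D30. Upper-quartile scaling gave 385 higher and 320 lower, and TMM scaling 328 higher and 330 lower. The other pathway lists had 5 calls, 3 with no filter, 12 with DESeq2, 8 without N1 and T4, and 2 to 9 when 1 tumor was left out. Those lists held 21, 21, 33, 8 and 29 tested genes in the main fit, some listed more than once. Of all genes, 2.76% were called in the main fit, 8.52% with DESeq2 and 6.43% without T4. The number of members higher in D30 stayed between 18 and 30. The members' median log2 fold change turned to -0.0351 with scaling to library size, as did Acsl3 (-0.0531) and Ppard (-0.184). Fabp5 was -0.0109 without N4 and T4 and ran from -0.00842 (without T4) to 1.09 when 1 tumor was left out. Likewise Acsl5 ran from -0.276 to 0.0248, with the positive value without T5. Ppara ran from -0.478 to 0.568, negative without T5 or N4, and Ppard from -0.195 to 0.597, negative without N1, T1, T2, T5 or T7. None of these was past the threshold, and the causes were not tested. Depth limits Ppara, Slc27a2, Ehhadh and Cpt1b, which rest on few reads. Ppargc1b also rests on few reads in CTRL (12.4 to 18.8 normalized counts) and in T4 (8.10). The ratio of Ppargc1a to Ppargc1b shares that limit.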
